A study of Mus musculus with 31 samples.

Results

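The BMP response genes and Id family described here are 10 genes chosen by name: Id1, Id2, Id3, Id4, Smad6, Smad7, Smad9, Bambi, Nog and Bmper. All 10 were found by symbol among 34865 identifiers in a bulk RNA-seq table and 55487 in a Smart-seq2 table. The bulk table held 3 libraries of dorsal and 3 of ventral diencephalon from wild-type mice at E10.5 (embryonic day). The Smart-seq2 table, made by a protocol that reads whole transcripts, held E11.5 medial cortex cells of Emx1-CreERT2::MADM-11::Axin2LacZ/+ mice. It had 13 libraries that are Axin2-/- by label (null) and 12 that are Axin2+/+ (wild type). In MADM, mosaic analysis with double markers, Cre acts between homologous chromosomes and leaves daughter cells with different genotypes and colours, here green for null and red for wild type. Recombination was driven by CreERT2 from the Emx1 gene, a gene of dorsal telencephalic progenitors, so both genotypes came from Emx1-expressing lineages.

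Bone morphogenetic proteins (BMPs) bind pairs of receptor serine kinases, which phosphorylate the receptor-regulated Smads Smad1, Smad5 and Smad9. These enter the nucleus with Smad4 and switch on a small set of direct targets. Id genes, which encode helix-loop-helix proteins without a DNA-binding region that hold bHLH transcription factors inactive, are the best-known targets, and Smad6, Smad7 and Bambi are targets that damp the pathway. In the early forebrain BMP ligands are made by the dorsal midline and cortical hem.

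The libraries carried tissue markers beyond their labels. Of 12 thalamic, epithalamic and pretectal markers 11 were higher in dorsal, and of 12 hypothalamic markers 11 were higher in ventral libraries. All 10 telencephalic and cortical markers were also higher in dorsal libraries, with summed levels of 2199 to 2507 CPM (counts scaled to library size) against 59.8 to 67.1 CPM in ventral. Of 19 intestinal and pancreatic markers 18 were higher in ventral libraries, summing to between 3106 and 11689 CPM there and between 12.3 and 17.4 CPM in dorsal. Libraries 1 and 2 of each region were closer to each other than to library 3 (Pearson correlations across genes of 0.995 in dorsal and 0.987 in ventral, against 0.914 to 0.962 for the other pairs).

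In bulk, 3 members passed the test between regions. Id2 and the inhibitory Smad6 were higher in dorsal and Id3 was higher in ventral diencephalon, so the Id family split by region. Of the 10 members 9 reached a mean of 1 CPM over the 6 libraries and were tested. The 3 that passed stand against 16.7% of all 14701 genes tested, with 7.14% of genes higher in dorsal and 9.54% higher in ventral. The median log2 fold change, dorsal over ventral, was -0.44 over the 9 tested members and 0.01 over all genes tested. With 9 values the former is the fold change of Nog alone, which was 0.99 without ventral library 3. It therefore does not describe the members as a set. Bulk tissue cannot tell fewer expressing cells from less RNA per cell.

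**Figure D1:**
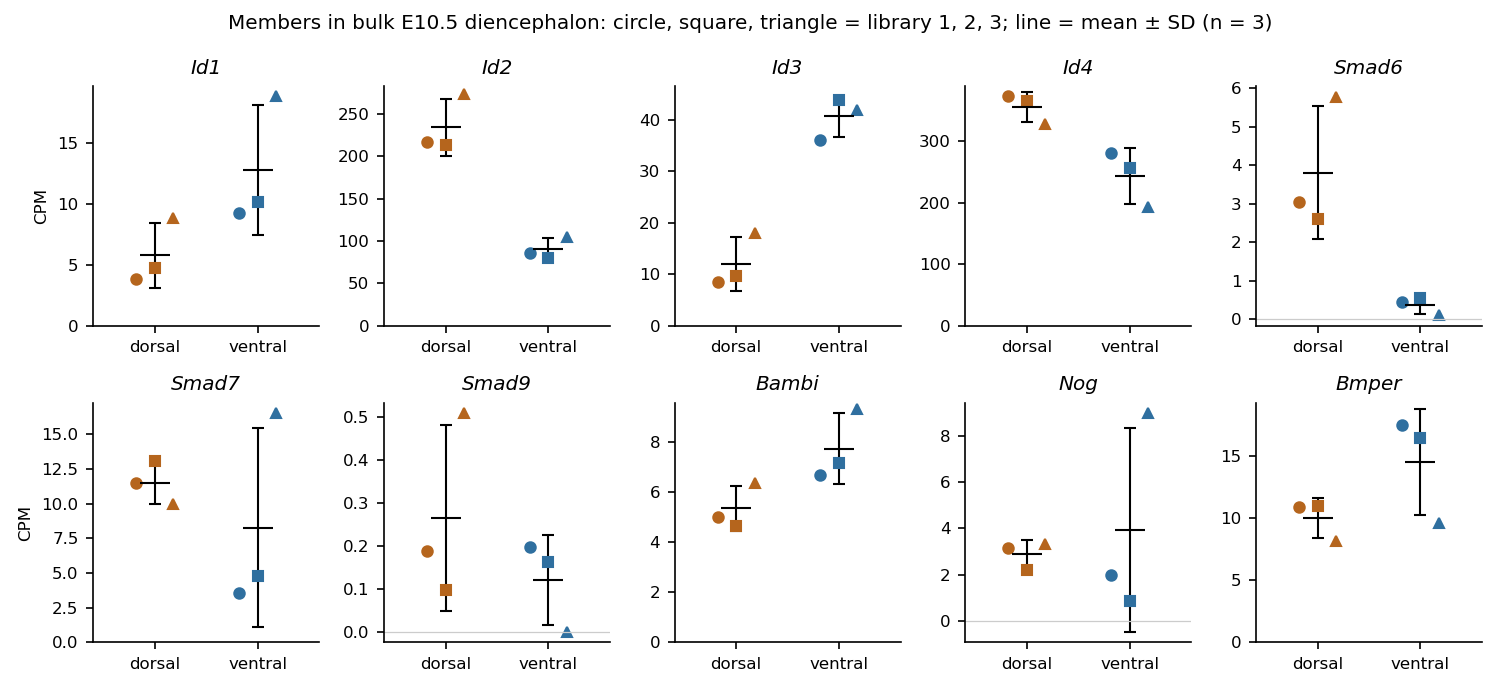
CPM of each member in each bulk library, dorsal and ventral, with the mean and SD of 3 libraries (circle, square and triangle are libraries 1, 2 and 3). Id2 and Smad6 lay higher in all dorsal libraries and Id3 in all ventral ones, while Smad7 and Nog were highest in ventral library 3.

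Id2 (ENSMUSG00000020644, chromosome 12, 25093799 to 25097140, minus strand) measured 216, 213 and 273 CPM in dorsal libraries 1, 2 and 3. In the ventral libraries it measured 86.4, 79.9 and 105 CPM. Every dorsal library lay above every ventral one. The means were 234 ± 33.6 and 90.5 ± 13.1 CPM (SD, n = 3 each), 2.59-fold higher in dorsal. The log2 fold change was 1.37 (SE 0.19, adjusted p = 0.00223, edgeR). This call held when any 1 library was left out, with log2 fold changes of 1.25 to 1.46.

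Id3 (ENSMUSG00000007872, chromosome 4, 136143497 to 136145755, plus strand) went the other way. It measured 8.55, 9.61 and 18.1 CPM in dorsal and 36.2, 43.9 and 42.0 CPM in ventral libraries. Dorsal library 3 was the highest of its region, and the regions did not overlap. The means were 12.1 ± 5.24 and 40.7 ± 4.03 CPM (SD, n = 3 each), 3.36-fold higher in ventral. The log2 fold change was -1.75 (SE 0.32, adjusted p = 0.00834, edgeR), and the call held when any 1 library was left out (-2.16 to -1.56). The summed intestinal and pancreatic markers stood at 6334, 11689 and 3106 CPM in ventral libraries 1, 2 and 3. Their part in the Id3 difference was not tested.

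Smad6 (ENSMUSG00000036867, chromosome 9, 63953076 to 64022059, minus strand) encodes an inhibitory Smad that blocks BMP receptor signalling. It had 65, 54 and 102 counts in dorsal and 9, 10 and 2 counts in ventral libraries. In CPM these were 3.06, 2.59 and 5.77 in dorsal against 0.444, 0.540 and 0.111 in ventral. The lowest dorsal library was thus above the highest ventral one. The means of 3.81 ± 1.72 and 0.365 ± 0.225 CPM (SD, n = 3 each) differed 10.4-fold, with a log2 fold change of 3.35 (SE 0.77, adjusted p = 0.0216, edgeR). The direction held without any 1 library. The call was lost without dorsal library 1 (adjusted p = 0.0699), dorsal library 2 (0.0559), ventral library 1 (0.0777) or ventral library 2 (0.0520), again by edgeR.

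Sequence from RefSeq promoter windows is shown for these 3 genes because they are the members that passed the test between regions. RefSeq promoter windows on GRCm38.p6 (250 bases before a start to 50 after it, 300 in all) were given for 6 of the 10 members, namely Id2, Id3, Id4, Smad6, Smad9 and Bmper. Each window was searched on both strands for GTCTAGAC, the palindromic Smad-binding element, for GGCGCC, a GC-rich element of BMP-responsive promoters, and for GTCTG, a Smad half-site that does not overlap the other motifs. Capitals mark matches, and each sequence reads 5′ to 3′ on the gene's strand. The Smad6 stretch, chr9:64022056-64022309 (minus strand), ends 4 bases after the annotated start. The Id2 stretch, chr12:25096254-25096342 (minus strand), is the part of its window outside annotated exons. By the GENCODE annotation it lies inside the Id2 gene, past the start at 25097140, so it is intronic there and not upstream. The Id3 stretch, chr4:136143742-136143771 (plus strand), is a site within the first exon of the GENCODE transcript.
Smad6: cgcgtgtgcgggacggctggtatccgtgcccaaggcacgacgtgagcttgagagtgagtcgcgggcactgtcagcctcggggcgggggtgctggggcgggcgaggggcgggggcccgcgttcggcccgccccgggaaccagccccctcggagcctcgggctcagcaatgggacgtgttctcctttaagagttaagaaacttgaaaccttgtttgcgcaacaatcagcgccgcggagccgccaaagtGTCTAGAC
Id2: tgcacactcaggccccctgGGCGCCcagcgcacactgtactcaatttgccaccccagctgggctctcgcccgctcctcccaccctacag
Id3: ggacccttggcgGTCTGttttgaataaggg

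The Smad6 window held the full palindrome once, across the start site, a motif found in 70 of 32851 mouse promoter windows of that length (0.213%). GGCGCC stood once in each of the Id2, Id4 and Smad9 windows and in 11.9% of all windows. GTCTG stood 2 times in the Id3 window and in 49.6% of all windows. The Bmper window held none of these motifs. The motifs were chosen after the sequences were seen, and a match describes letters, not a bound site.

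Id1 and Id4, the other Id genes, did not pass. Id1 (chromosome 2, 152736251 to 152737410, plus strand) measured 3.85, 4.71 and 8.83 CPM in dorsal and 9.22, 10.2 and 18.9 CPM in ventral libraries. The regions did not overlap, but dorsal library 3 came close to ventral library 1, and library 3 was the highest of each region. Its log2 fold change was -1.14 (SE 0.46, adjusted p = 0.139, edgeR). Id4 (chromosome 13, 48261228 to 48266026, plus strand) measured 373, 365 and 328 CPM in dorsal and 280, 257 and 193 CPM in ventral libraries. Again no ventral library reached a dorsal one. Its log2 fold change was 0.55 (SE 0.18, adjusted p = 0.0771, edgeR). The antisense gene A330033J07Rik and the lincRNA gene Gm49291, on the other strand, overlap Id4 in the annotation, and whether the counting used strand is not given in the sources used here.

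Levels per transcript length gave the order of the Id genes. Scaled to exon length and to a fixed total per library (TPM), the dorsal means were 305 ± 14.2 for Id2, 298 ± 47.3 for Id4, 21.1 ± 6.85 for Id3 and 15.6 ± 5.48 for Id1 (SD, n = 3). Within dorsal libraries 1, 2 and 3 the ratio of Id4 to Id2 was 1.09, 1.09 and 0.762, so neither gene was higher throughout. Id3 lay above Id1 in each dorsal library (16.4, 17.9 and 28.9 against 11.4, 13.6 and 21.8 TPM), though their SDs overlapped. In ventral libraries the means were 167 ± 23.1 for Id4, 99.8 ± 22.6 for Id2, 60.6 ± 7.42 for Id3 and 29.9 ± 14.9 for Id1. The ratio of Id2 to Id3 on this scale was 18.6, 16.3 and 11.1 in the dorsal libraries. It was 1.76, 1.34 and 1.84 in the ventral libraries, so Id2 exceeded Id3 in all 6 libraries and by far more in dorsal ones.

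The remaining Smads differed in how they spread. Smad7, a second inhibitory Smad, measured 11.52, 13.07 and 9.96 CPM in dorsal and 3.55, 4.76 and 16.5 CPM in ventral libraries. Ventral library 3 stood above every dorsal library and the other ventral libraries below all of them. The log2 fold change was 0.48 (SE 0.57, adjusted p = 0.624, edgeR). Without ventral library 3 it was 1.44 with an adjusted p of 0.0110 (edgeR). Smad9 (chromosome 3, 54755582 to 54801257), the receptor-regulated Smad also called Smad8, was not tested, with 4, 2 and 9 counts in dorsal and 4, 3 and 0 counts in ventral libraries.

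Bambi, a receptor-like decoy without a kinase domain, measured 5.03, 4.66 and 6.39 CPM in dorsal and 6.71, 7.19 and 9.35 CPM in ventral libraries. Its regions did not overlap, yet the log2 fold change of -0.53 did not pass (adjusted p = 0.367, edgeR). Among the 9 tested members, 6 had regions that did not overlap (Id1, Id2, Id3, Id4, Smad6 and Bambi), against 39.0% of all genes tested.

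The secreted members did not pass either. Nog encodes noggin, which binds BMPs and keeps them from their receptors. It measured 3.15, 2.21 and 3.34 CPM in dorsal and 1.97, 0.865 and 8.96 CPM in ventral libraries. Ventral library 3 alone was above the dorsal range, and the other ventral libraries were below it. The log2 fold change was -0.44 (adjusted p = 0.767, edgeR) with that library and 0.99 without it (adjusted p = 0.222). Bmper (chromosome 9, 23223076 to 23485200), a secreted crossveinless-type BMP modulator, measured 10.9, 10.96 and 8.21 CPM in dorsal and 17.5, 16.4 and 9.63 CPM in ventral libraries. Ventral library 3 lay within the dorsal range. The log2 fold change was -0.53 (adjusted p = 0.317, edgeR), and without ventral library 3 it was -0.79 with an adjusted p of 0.0411.

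**Figure D2:**
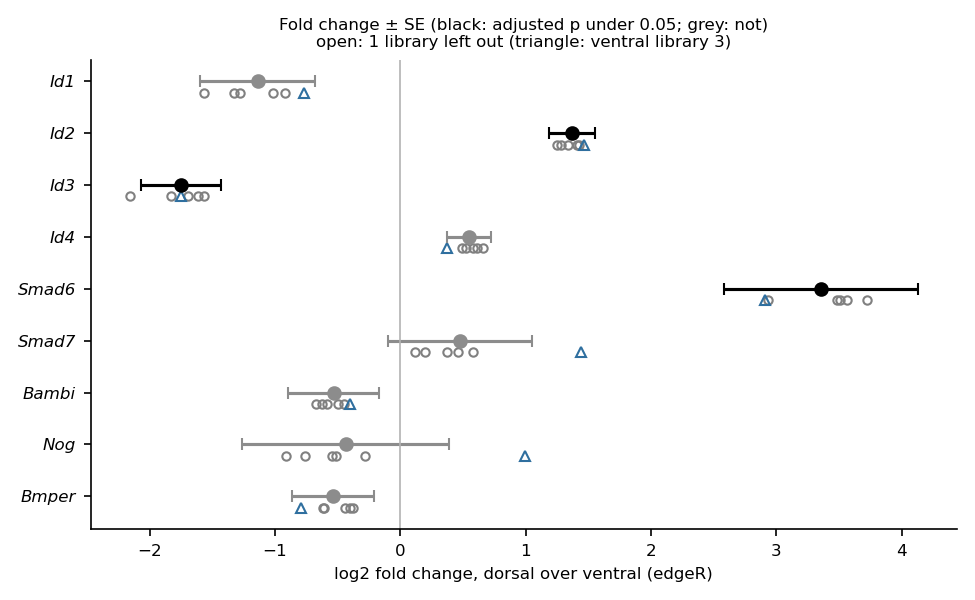
Log2 fold change, dorsal over ventral, of the 9 tested members with its standard error (black: adjusted p under 0.05; grey: not), and below each the values with 1 library left out. All but Nog kept their direction throughout, and Smad7 and Nog moved most without ventral library 3, to 1.44 and 0.99.

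Without ventral library 3, 5 members passed (Id2, Smad6 and Smad7 higher in dorsal, Id3 and Bmper higher in ventral), where 24.7% of all genes tested did. With library 3 left out in dorsal and in ventral, which was tried after the data were seen, 7 members passed. They were Id2, Id4, Smad6 and Smad7 higher in dorsal and Id1, Id3 and Bmper higher in ventral. In that setting 54.7% of all genes tested also passed. Nothing in the labels says that libraries 1 and 2 came from separate embryos.

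Genes of other cell types that express Id and Smad genes were also read in bulk. Their levels are sums over 14 genes, which cannot be set against the level of a single gene such as Smad6 (0.111 to 5.77 CPM). Summed over 14 endothelial markers, levels were 10.3 to 18.3 CPM in dorsal and 14.8 to 23.2 CPM in ventral libraries, with no marker at 0 in every library of a region. One of 7 tested, Sox18, was higher in ventral (3.45 ± 0.366 against 0.611 ± 0.203 CPM, SD, n = 3) and none in dorsal. Summed over 14 mesenchyme and pericyte markers, levels were 23.8 to 31.7 CPM in dorsal and 38.7 to 73.4 CPM in ventral libraries. One of 9 tested, the smooth muscle actin gene Acta2, was higher in ventral (20.5 ± 18.3 against 0.294 ± 0.140 CPM, SD, n = 3). The part of these cells in the member differences was not tested.

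Upstream of the members, the counts of pathway genes that passed are read beside the 16.7% of all genes tested that did. Of 12 BMP ligand genes 2 were tested and 0 passed by edgeR, with 1 (Bmp7) at an unadjusted p under 0.05. Bmp7 had 9.79 ± 1.79 CPM in dorsal against 4.54 ± 2.14 CPM in ventral libraries (adjusted p = 0.133, edgeR, n = 3), and Bmp2 at 1.31 ± 0.634 and 1.34 ± 1.25 CPM. The classic dorsal midline ligand Bmp4 was below the minimum for testing, at 0.163 ± 0.192 and 0.495 ± 0.388 CPM. Of 9 tested receptors and co-receptors 1 was higher in dorsal and none in ventral. It was Neo1, a receptor for repulsive guidance molecules, at 143 ± 52.1 against 71.6 ± 5.52 CPM (adjusted p = 0.0472, edgeR, n = 3). Of 12 tested signal transducers 1 was higher in dorsal, the receptor-regulated Smad5 at 105 ± 12.5 against 56.8 ± 8.47 CPM (adjusted p = 0.0144, edgeR, n = 3). Smad1, its close relative, was at 155 ± 26.4 and 152 ± 19.2 CPM. Of 9 tested further secreted antagonists and modulators 0 passed by edgeR and 4 (Bmp1, Grem1, Nbl1 and Tll1) had an unadjusted p under 0.05. So had 6 of 9 receptors and co-receptors and 4 of 12 signal transducers. Id1 with an unadjusted p of 0.0384 (edgeR) ranked 4074th of all 14701 genes tested, so at least 4074 genes were under 0.05. The exact share of all genes under 0.05 is not given here, so these unadjusted counts are not read as a result. The most abundant of the antagonists and modulators were Twsg1 at 96.6 ± 36.4 against 75.5 ± 17.2 CPM and Bmp1 at 46.1 ± 3.35 against 32.0 ± 3.39 CPM.

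Of 9 tested genes known as BMP targets in other tissues, 4 were higher in dorsal and 0 in ventral, where 7.14% and 9.54% of all genes tested were. Their median log2 fold change was 2.46, against 0.01 over all genes. Gata3 also stands among the thalamic, epithalamic and pretectal markers, and Lmx1a among the roof plate and cortical hem markers. The list is thus not separate from the regional markers. Gata3 and Gata2, zinc finger factors of diencephalic and midbrain GABA neurons, were at 20.3 ± 3.75 against 0.774 ± 0.109 CPM and 12.7 ± 0.862 against 1.11 ± 0.934 CPM. The roof plate factor Lmx1a was at 5.69 ± 1.74 against 0.485 ± 0.325 CPM and the Notch effector Hey1 at 38.8 ± 10.02 against 8.47 ± 1.26 CPM (SD, n = 3 each). Msx1, a roof plate homeobox gene, was at 2.72 ± 1.49 and 5.11 ± 1.36 CPM and did not pass (adjusted p = 0.309, edgeR).

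Of 12 tested bHLH factors that Id proteins bind or oppose, 6 were higher in dorsal and 0 in ventral, beside the same shares of 7.14% and 9.54% of all genes. Their median log2 fold change was 0.85. Olig3 also stands among the thalamic, epithalamic and pretectal markers and Neurod1 among the neuron markers, so this list is not separate from them either. The proneural gene Neurog2 was at 375 ± 4.86 against 34.7 ± 7.68 CPM, and its relative Neurog1 at 8.92 ± 1.16 against 0.774 ± 0.456 CPM. The thalamic progenitor factor Olig3 was at 15.7 ± 3.12 against 0.806 ± 0.115 CPM and the neuronal factor Neurod1 at 180.4 ± 9.53 against 35.1 ± 3.66 CPM. The remaining calls, named after their values were seen, were the E proteins Tcf4 at 571 ± 51.4 against 167 ± 13.03 CPM and Tcf3 at 210.5 ± 24.8 against 112 ± 8.29 CPM (SD, n = 3 each). E proteins are the direct partners of Id proteins. The third E protein, Tcf12, was at 155 ± 30.7 and 149.7 ± 12.9 CPM and did not pass (adjusted p = 0.880, edgeR).

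**Figure D3:**
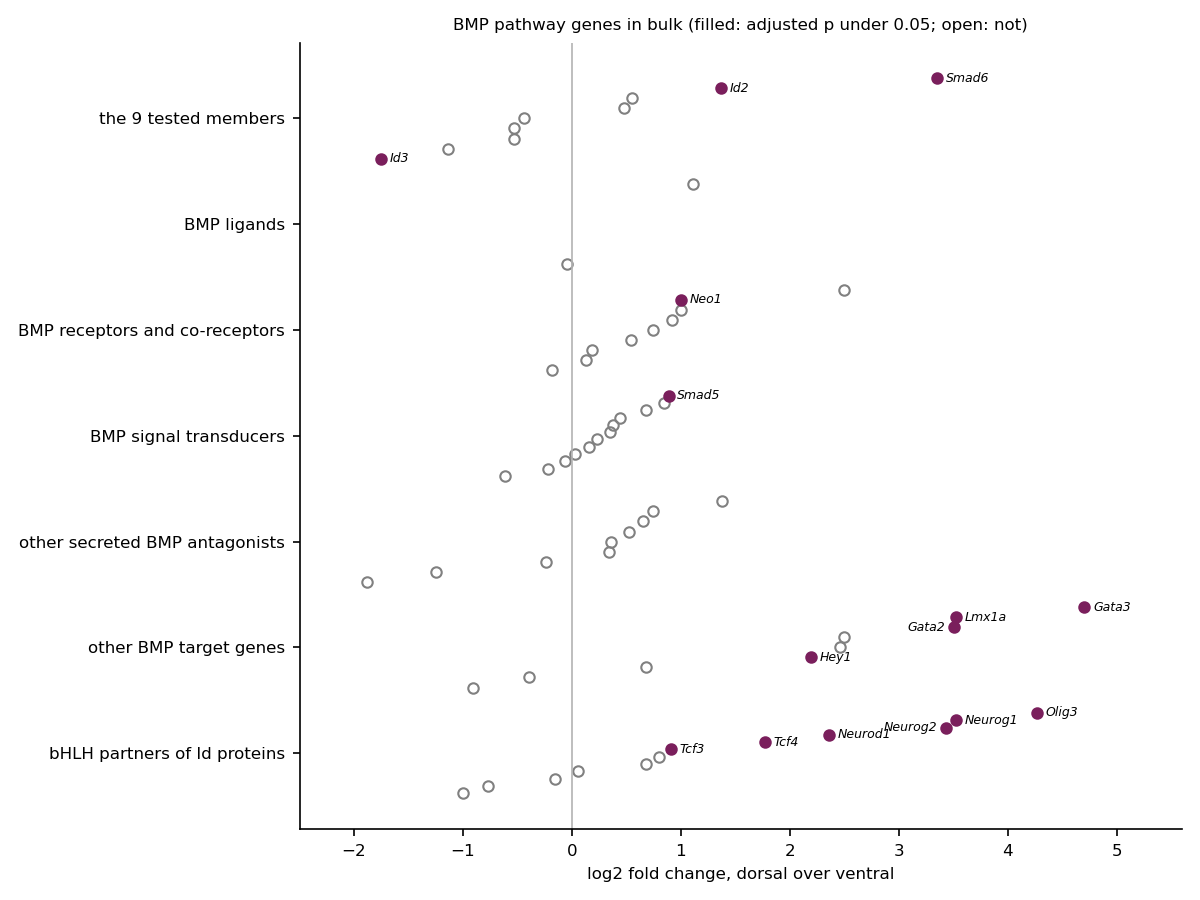
Log2 fold change, dorsal over ventral, of every tested member and pathway gene in bulk, 1 point per gene (filled: adjusted p under 0.05). Among the pathway genes all 12 filled points lie on the dorsal side, and Id3 is the only filled point on the ventral side. Of the filled pathway genes, Gata3, Lmx1a, Olig3 and Neurod1 are also on the tissue or cell type marker lists.

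The Smart-seq2 libraries compare Axin2-null with wild-type cells of the medial cortex. Axin2 itself had a median of 3.28 TPM (0 to 22.4) in null and 13.2 TPM (4.32 to 35.9) in wild-type libraries, so the groups overlapped. The labels call each sample a cell and name no animal. Each genotype therefore counts as 1 sample, and no test was made. Summed without the choroid plexus gene Ttr, the cortical hem markers had a minimum of 67.05 TPM over the null and 83.45 TPM over the wild-type libraries, and the cortical gene Lhx2 a minimum of 165.54 TPM over all 25. Blood and macrophage markers summed to between 2575 and 43553 TPM in null and between 999 and 30999.8 TPM in wild-type libraries, and endothelial markers to 44.3 to 209.8 and 52.9 to 285 TPM. Their part in what follows was not tested. Minima over all 25 libraries were 31.8 TPM for the neuron marker Tubb3 and 14 TPM for the progenitor marker Top2a. They were 5.94 TPM for the mesenchyme marker Col3a1, 10.9 TPM for the endothelial marker Egfl7 and 388 TPM for the globin gene Hba-a1. Every library thus carried transcripts of several cell types. Whether a library is 1 cell was not tested, so levels and detection below are per library.

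No member differed by 1 or more in mean log2(TPM + 1) between genotypes. The 8 members with a mean of at least 1 TPM spanned differences, null minus wild type, of -0.78 to 0.71 with a median of -0.19, against a median of -0.22 over all 13680 such genes. Of those genes 9.52% were past 1, with 1.39% higher in null and 8.14% higher in wild type. Null libraries had a median of 10791 genes at 1 TPM or more and wild-type libraries 11271. The part of this in the shares was not tested. All 4 Id genes were abundant and were found in nearly every library, whereas the other 6 members were sparse.

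Id3 was the leading member in these libraries. It measured from 84.5 to 348 TPM with a median of 201 in null libraries and from 66.0 to 358 TPM with a median of 208 in wild type. The genotypes covered the same range, and the difference of mean log2(TPM + 1) was 0.18 (SD over libraries 0.64 and 0.70). Of the 4 Id genes Id3 was the highest in 22 of 25 libraries and Id2 in the other 3. The ratio of Id2 to Id3 was below 1 in 11 of 13 null and 11 of 12 wild-type libraries, with medians of 0.287 and 0.377. In the bulk libraries, another tissue, day and method, it was above 1 throughout.

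Id2 measured from 9.67 to 188 TPM (median 95.2) in null and from 46.1 to 178 TPM (median 82.3) in wild-type libraries. Null column 7 was the lowest for Id2, and 3 further null libraries also lay below the whole wild-type range, the difference being -0.25. Id1 measured from 0 to 100.1 TPM (median 24.9) in null and from 12.6 to 91.2 TPM (median 25.3) in wild-type libraries. Its single 0 was in that same null column 7, and the difference of -0.27 became 0.11 without this library. Null column 7 had 7863 genes at 1 TPM or more, the fewest of the 25 libraries. The 3 further null libraries low for Id2 were columns 1, 9 and 11, with 8360, 8204 and 11694 such genes. The part of genes detected in these low values was not tested. Id1 was the lowest of the 4 Id genes in 16 of 25 libraries.

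Id4 had the widest gap between genotypes of the Id genes. It measured from 12.7 to 167 TPM (median 27.6) in null and from 20.4 to 147 TPM (median 54.9) in wild-type libraries. Of the 12 wild-type libraries 10 lay above the null median, and of the 13 null libraries 2 lay above the wild-type median. The difference of mean log2(TPM + 1) was -0.78 (SD over libraries 0.99 and 0.98), within the spread of libraries. In absolute size it exceeded that of 81.8% of the 13680 genes.

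The header of the table lists columns numbered 1 to 7 of each genotype before the others, and Id4 varied with this split, which was examined after seeing the data. In columns 1 to 7 the Id4 medians were 26.4 TPM in 7 null and 40.3 TPM in 7 wild-type libraries. From column 8 on they were 33.2 TPM in 6 null and 143 TPM in 5 wild-type libraries. The difference was -0.42 in the former and -1.35 in the latter. Other members also varied with the split. Over both genotypes the median went from 166 TPM in columns 1 to 7 to 285 TPM from column 8 on for Id3, from 107 to 65.4 TPM for Id2, from 0.225 to 3.77 TPM for Bambi and from 0.95 to 3.99 TPM for Nog. Neither the labels nor the header say what this numbering stands for.

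**Figure D4:**
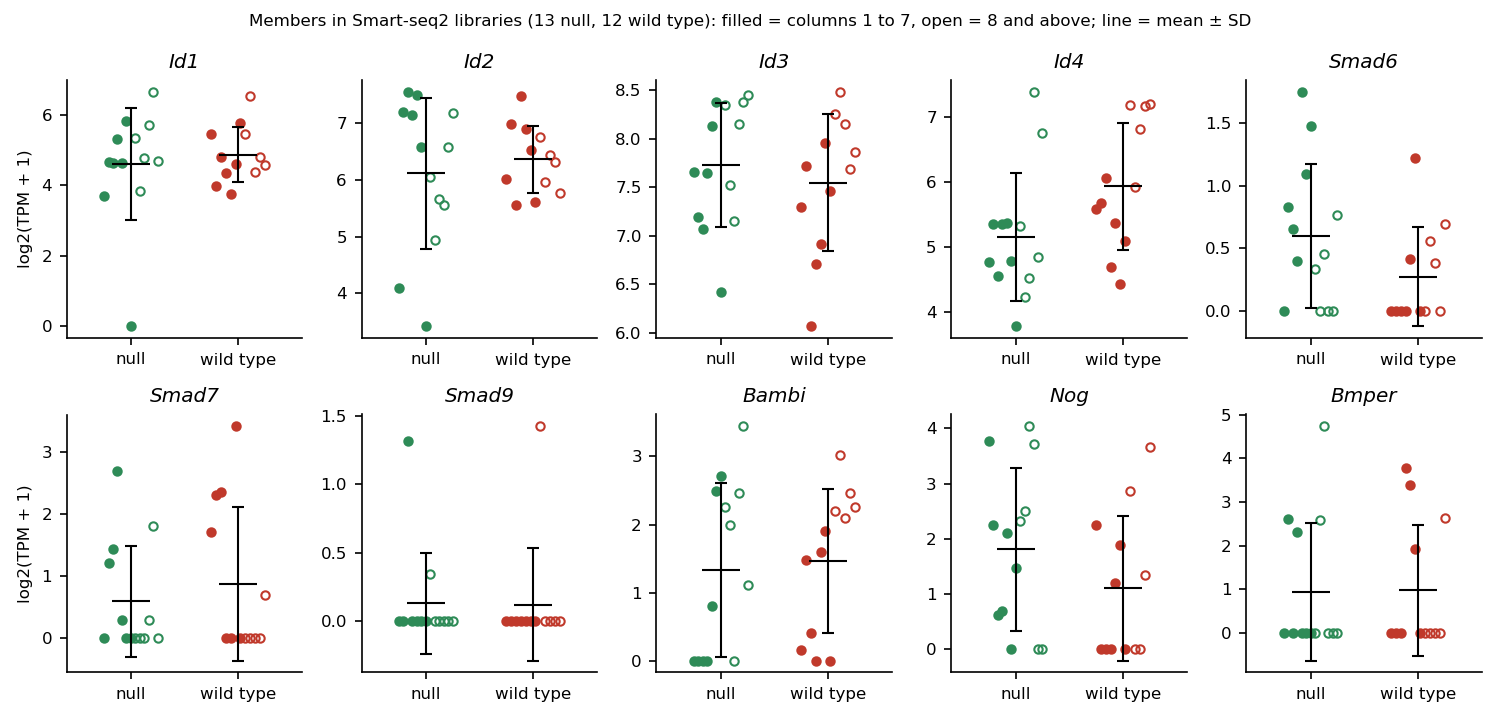
Log2(TPM + 1) of each member in the 13 null and 12 wild-type Smart-seq2 libraries, with the mean and SD over libraries (filled: columns 1 to 7; open: column 8 and above). The genotypes overlap for every member, and the open points of Id4 in wild type lie high.

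The feedback and secreted members had low levels, and their detection (at least 1 TPM) varied. Bambi was detected in 7 of 13 null (53.8%, exact 95% binomial interval 25.1 to 80.8%) and 8 of 12 wild-type libraries (66.7%, 34.9 to 90.1%). Nog, which lies on chromosome 11 (89300638 to 89302332) as Axin2 does and so on the pair recombined by MADM-11, was detected in 8 null (61.5%, 31.6 to 86.1%) and 6 wild-type libraries (50%, 21.1 to 78.9%). Its difference of 0.71 was the largest upward one among the members, with ranges of 0 to 15.45 TPM (median 3.31) in null and 0 to 11.6 TPM (median 0.64) in wild type. The intervals cover counting of libraries only and compare no genotypes. Smad7 was detected in 4 null and 4 wild-type libraries and Bmper likewise in 4 and 4. Smad6 was detected in 3 null and 1 wild-type libraries and Smad9 in 1 and 1, and neither reached a mean of 1 TPM. The highest single values were 9.67 TPM for Smad7 in a wild-type and 25.6 TPM for Bmper in a null library. TPM keeps no depth, so a 0 here is a listed value and not a measured absence.

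Across the 25 libraries, taking off each genotype's mean, the closest pair of members was Id1 and Id3 (Pearson r = 0.58 of log2(TPM + 1)). Id3 and Bambi followed at 0.53 and Id3 and Id4 at 0.48, and the lowest was Id2 with Nog at -0.37. These describe libraries that share a capture method and differ in genes detected, and carry no test.

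Each Id gene had its own nearest genes among 6345 genes ranked the same way. Id3 ran closest to the Notch ligand Dll1 (r = 0.82), the channel gene Trpm3 (0.79) and the hem-expressed Wnt potentiator Rspo3 (0.79). Id2 ran closest to Dnpep (0.83), the tubulin gene Tuba1a (0.81) and the growth cone gene Gap43 (0.80). Id1 ran closest to Dedd (0.85), Slc25a1 (0.84) and Oser1 (0.81), and Id4 to Pcbp1 (0.83), Gnas (0.81) and the GTPase gene Rac1 (0.79). The closest genes of so many ranked over 25 libraries are high by selection.

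Id3 also varied with the summed level of 13 cortical hem markers. Most of that sum (70.06% of its mean of 657 TPM) was Ttr, the transthyretin gene of the choroid plexus, and the other 12 markers, among them Msx1, Rspo3 and Bmp7, averaged 197 TPM together. Pearson r with Id3 was 0.70 and Spearman's rho 0.62 over the 25 libraries, computed as above. Without Ttr, a choice made after seeing the data, r was 0.69 and rho 0.74, and with Ttr alone they were 0.57 and 0.42. Without the 2 libraries farthest from the median of the full sum r was 0.50. Within columns 1 to 7 it was 0.65 over 14 libraries and from column 8 on 0.81 over 11. The lowest hem sums were in null columns 7, 9 and 10 and wild-type columns 1 and 3. These had 7863, 8204, 8537, 8693 and 9247 genes at 1 TPM or more, against medians of 10791 in null and 11271 in wild type. Null column 1, with 8360 such genes, had a hem sum of 639 TPM. The part of genes detected in this correlation was not tested. Other marker lists lay close to the hem, with r of 0.67 for choroid plexus and roof plate, 0.62 for hypothalamic and 0.59 for mesenchyme and pericyte markers. The choroid plexus and roof plate list shares Ttr, Lmx1a, Wnt3a, Msx1 and Rspo3 with the hem list, so its r is not a separate value. Of 12 hypothalamic markers only 1, Pomc, reached a mean of 1 TPM (6.79 TPM). The lowest of the 11 lists was -0.40, for intestinal and pancreatic markers, which were near 0.

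**Figure D5:**
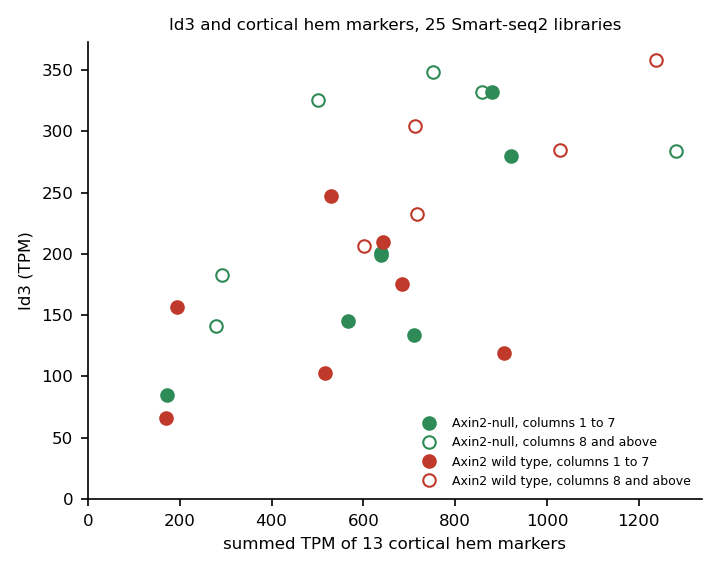
Id3 (TPM) against the summed TPM of 13 cortical hem markers, mostly Ttr, in 25 Smart-seq2 libraries by genotype and column number. Libraries with a low hem sum had low Id3 in both genotypes (r = 0.70 on the log2 scale, genotype means taken off). The libraries with the lowest hem sums also had few genes at 1 TPM or more.

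Among the pathway genes around the members, 2 were past 1 between genotypes and both were lower in null, beside 9.52% of all genes past 1 in either direction. Of 5 BMP ligands with a mean of at least 1 TPM none was past 1, with Bmp7 at a mean of 13.5 TPM in null and 19.6 TPM in wild type and Bmp4 at 2.73 and 6.08 TPM. Of 11 receptors 1 was lower in null, the activin type II receptor Acvr2a at 7.08 (SD 6.79) against 10.9 TPM (SD 6.15). None of 12 signal transducers and none of 6 further antagonists was past 1. Of 7 other BMP target genes 1 was lower in null, Msx2, a homeobox gene of the dorsal midline, at 3.63 (SD 5.001) against 10.8 TPM (SD 10.9), a difference of -1.28. None of 10 bHLH partners was past 1. Median differences were -0.46, -0.74, -0.37, -0.55, -0.69 and -0.22 for these 6 lists in order, with -0.22 over all genes.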

How the data were processed

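RNA was measured in 6 bulk and 25 Smart-seq2 libraries, grouped by their labels. The submitters' processing notes name Trimmomatic, featureCounts and STAR 2.7.0a, and the builds mm10 and GRCm38, without their roles. The deposited bulk table is named TPM, but its columns do not share a sum and 46.6% of its values above 0 are whole within 0.0001, so they were treated as estimated counts and rounded. Totals were 17604166 to 20838002 counts per library. The deposited Smart-seq2 values are TPM, whose depth is unknown. Symbols, positions and exon lengths are from GENCODE M21.

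Genes averaging 1 CPM or more were tested with edgeR 4.0.16 (TMM, quasi-likelihood F test, R 4.3.3), with Benjamini-Hochberg adjustment over all genes and a threshold of 0.05. Standard errors are the fold change over the root of F. DESeq2 1.42.0 and limma 3.58.1 were alternatives. The fit was tested on simulated data. Replicates exceeded sampling noise in every pair and were all kept; p-values measure spread between libraries, which may be technical.

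In Smart-seq2, differences are of mean log2(TPM + 1). Intervals are Clopper-Pearson and cover counting error only. Columns carry a colour letter and a number. The letter was matched to a genotype because descriptions of the null samples start with Green and those of the wild-type samples with Red. The number is not tied to a sample.

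Named genes were the members, then up to 4 calls per direction of each list (the 2 most abundant where none passed), up to 2 per direction in Smart-seq2, and the 3 genes most like each Id gene at 10 TPM or more with at least 1 TPM in 20 libraries (members and predicted genes left out). Others, such as Bmp4, Smad1, Msx1, Tcf12 and Lhx2, were named after their values were seen. Members and lists were chosen with earlier results of these data known.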

Additional observations from a re-analysis of the deposited data

How the results depend on the processing

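Of the 9 tested members, Id2 and Id3 kept direction and call in every alternative run. Smad6 lost its call with a replicate block (log2 fold change 3.36, adjusted p = 0.0773, edgeR) and in 4 settings that leave out 1 library, and it was not tested at a minimum of 5 CPM. Nog reversed, to 0.20 with the block, 0.022 by limma, 0.99 without ventral library 3 and 0.89 without library 3 of both regions (-0.91 to 0.99 without 1 library); the cause was not tested. Same-numbered libraries deviated together only weakly (r = 0.10, 0.15 and 0.16). Dorsal libraries 1 and 3 correlated best with the ventral library of their number, and dorsal library 2 with ventral library 1 (0.19). Dorsal library 3 was at -0.17 and -0.12 with ventral libraries 1 and 2. The main fit did not pair libraries by number, and whether the number marks a shared effect was not tested. With the block 2007 genes passed and 2 members. Leaving out 1 library gave 2 to 5 members called against 3, and 1341 to 3623 genes called against 2453. DESeq2 called 3872 genes. Without library 3 of both regions, chosen after seeing the data, 7 members and 7960 genes passed.

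In Smart-seq2, 1 member (Nog) was past 1 with a pseudocount of 0.1 or with medians, and 1 (Id4) from column 8 on. Genes past 1 numbered 1303, against 3804 and 45 with pseudocounts of 0.1 and 10, 2126 with medians, 697 at a minimum of 10 TPM, 2364 in columns 1 to 7 and 3365 from column 8 on; leaving out 1 library gave 1226 to 1589. All 250 alternative values of single members moved by less than 1 SD over libraries, which says little about stability. Most left out 1 library, which cannot move a mean that far, and changing the minimum level left values as they were. Over all settings the difference stayed negative for Id4 (-1.35 to -0.42) and positive for Nog (0.21 to 1.51). It took both signs for Id1 (-0.57 to 0.11), Id2 (-0.37 to 0.21) and Id3 (-0.091 to 0.34). So it did for Bambi (-0.63 to 0.065) and Bmper (-0.60 to 0.69), while Smad7 ran from -0.59 to 0. Counts under about 10 limit Smad9 and ventral Smad6.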
